A study of Mus musculus with 6 samples.

Results

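Amino acid transporter genes were examined in starry-sky tumor-associated macrophages (SS-TAMs) and germinal center macrophages (GCMs). The genes were taken by symbol, as every mouse gene of the families Slc1, Slc3, Slc6, Slc7, Slc36, Slc38 and Slc43 that had a probe set naming it alone among those analysed here. This gave 64 of the 19938 genes tested, of which 62 are carriers or carrier subunits and 2 are opposite-strand genes (Slc7a6os and Slc6a19os) that share the family symbol. Cells were captured by laser from CD68-stained sections, 1000 cells per mouse, and the amplified RNA of each mouse was hybridized to 1 Mouse Gene 1.0 array. SS-TAMs came from 3 female BALB/c SCID mice, a strain without mature lymphocytes of the T and B lineages. Each carried a subcutaneous tumor of 1.44 cm2 formed by BL2 cells, a line of human Burkitt's lymphoma. GCMs were the tingible-body macrophages of germinal centers in 3 female BALB/c mice that carry a CSF1R-EGFP transgene (EGFP driven by the Csf1r promoter) and had received 2 doses of sheep red blood cells. One label gives the tissue of the GCM samples as spleen and another as lymph nodes. All mice were 6 to 12 weeks old. The groups therefore differed in genotype, immune cells and tissue as well as in tumor, and these cannot be told apart.

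Amino acids cross membranes through carriers that either exchange one amino acid for another or couple uptake to sodium, chloride or protons. Some exchangers are heterodimers, in which a glycoprotein heavy chain brings a catalytic light chain of the Slc7 family to the cell surface. Macrophages that clear apoptotic cells take up and break down protein in lysosomes, which have amino acid carriers of their own, and use arginine, glutamine and cystine for polyamine and nitric oxide synthesis, energy and glutathione.

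Values are array intensities on a linear scale, and fold changes are on the log2 scale, SS-TAM minus GCM. A gene was called higher or lower where limma's Benjamini-Hochberg adjusted p over all genes was under 0.05. The median intensity of an array was between 6.1 and 6.5. No detection calls were used, so where a group lay near or below this median its level may be background. In that case the fold may understate the size of the difference. An unadjusted p under 0.05 was found for 25.7% of all genes tested, and counts of such genes are to be read against this share. Log2 values correlated between 0.967 and 0.976 among SS-TAM arrays, between 0.986 and 0.990 among GCM arrays, and between 0.903 and 0.933 across the groups. The 99th percentile of intensity lay between 241 and 284 for SS-TAMs and between 614 and 664 for GCMs.

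Markers of several cell types also differed between the captures. Core macrophage markers were counted without Cd68, which was stained for capture, and Csf1r, whose promoter drove EGFP in the GCM mice only. Of the 20 measured, 13 were called higher in SS-TAMs and 0 lower, with a mean log2 fold change of 1.80. Their summed intensity was 3046 to 4159 on SS-TAM arrays, against 1266 to 1397 on GCM arrays. Of 21 T cell markers, 0 were higher and 13 lower, with sums of 378 to 475 in SS-TAMs against 1526 to 2081 in GCMs. Of 18 B cell markers, 0 were higher and 2 (Cd79a and Ms4a1) lower, with sums of 197 to 246 in SS-TAMs against 267 to 675 in GCMs. Of 15 fibroblast and pericyte markers, 4 (Postn, Sparc, Col1a2 and Pdgfrb) were higher and 0 lower, with sums of 837 to 1586 in SS-TAMs against 441 to 568 in GCMs. Of 10 endothelial and 4 erythroid markers, 0 were called by limma (1 of each list had an unadjusted p under 0.05). The part of these differences in the transporter values was not tested. In such captures more RNA of a gene per macrophage and more macrophage RNA in a capture cannot be told apart.

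Of the 64 transporter genes, 8 (12.5%) were called higher in SS-TAMs, against 5.16% of all genes tested, and 1 (1.56%) was called lower, against 4.74% of all genes. The higher genes were Slc7a8, Slc6a6, Slc3a2, Slc43a2, Slc7a7, Slc6a8, Slc38a6 and Slc1a4, and the lower gene was Slc1a5. Of the higher genes, 5 rose at least 2-fold (7.81% of the transporter genes, against 1.4% of all genes). The median log2 fold change was 0.09 over the transporter genes and 0.04 over all genes. Among the 55 genes that were not called, 51 had a log2 fold change within 0.5 of 0. In 41 transporter genes all 6 arrays were under an intensity of 10, and 3 of these were called, against 6 of the 23 genes with a brighter array. The same split was not made over all genes, so it cannot be read as a trait of the transporters. The 9 called genes are plotted by array.

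**Figure D1:**
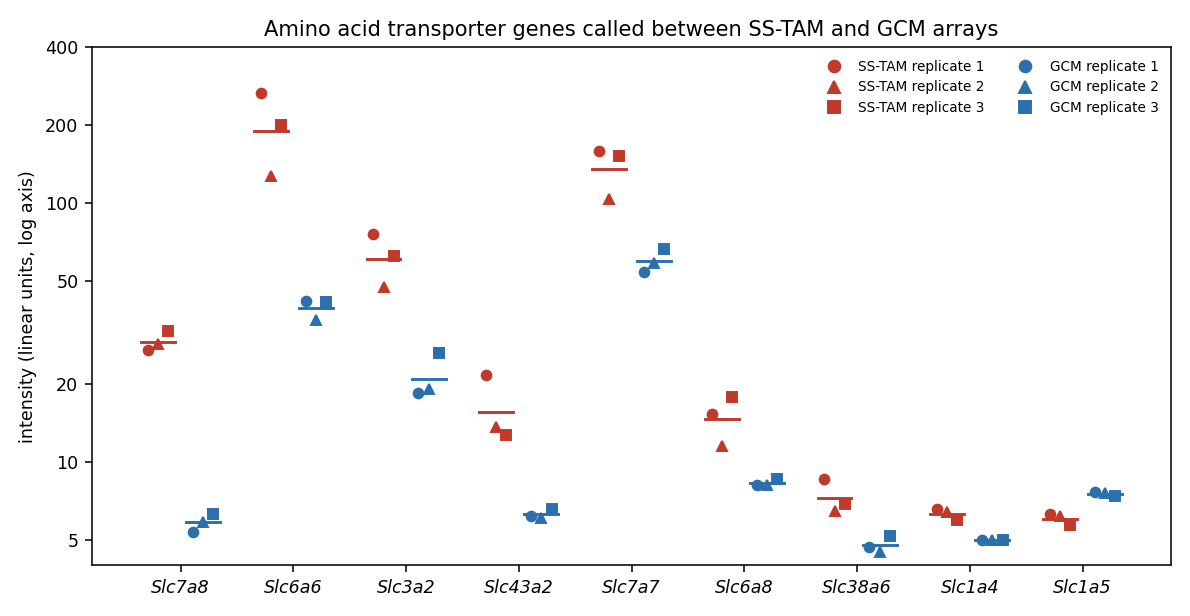
Intensity (linear units on a log axis) of the 9 called transporter genes on each array, SS-TAM arrays in red to the left of GCM arrays in blue, with the replicate given by the symbol and the geometric mean of 3 arrays by the bar. The 3 SS-TAM arrays lay above the 3 GCM arrays in 8 genes and below them in Slc1a5, and the separation was wide for Slc7a8 (27.2 to 32.0 against 5.4 to 6.3) and narrow for Slc1a4 (6.0 to 6.6 against 5.0 on each array).

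Of the heterodimer chains, 1 of 2 heavy chain genes (Slc3a2) and 2 of 10 light chain genes (Slc7a7 and Slc7a8) were called higher, against 5.16% of all genes. The bases before the start of Slc3a2, Slc7a7 and Slc7a8, and of the cystine exchanger gene Slc7a11, are shown. Slc7a7, Slc7a8 and Slc7a11 encode light chains that each pair with the heavy chain of Slc3a2. The log2 fold change of Slc7a11 was negative, unlike those of the others, but Slc7a11 was not called. Each run is the 250 bases before the first base of the transcript in RefSeq (GRCm38.p6), read 5′ to 3′ on the gene's strand. Capitals mark matches, on either strand, to the letters TGATGNAA, the core of the element bound by ATF4 with a C/EBP partner.
Slc3a2, chr19:8713898-8714147, minus strand: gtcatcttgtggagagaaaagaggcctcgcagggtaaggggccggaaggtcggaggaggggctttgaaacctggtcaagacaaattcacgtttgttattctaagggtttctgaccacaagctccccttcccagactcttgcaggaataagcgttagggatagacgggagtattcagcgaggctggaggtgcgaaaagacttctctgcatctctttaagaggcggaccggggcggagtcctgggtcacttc
Slc7a7, chr14:54417945-54418194, minus strand, the first of 5 windows: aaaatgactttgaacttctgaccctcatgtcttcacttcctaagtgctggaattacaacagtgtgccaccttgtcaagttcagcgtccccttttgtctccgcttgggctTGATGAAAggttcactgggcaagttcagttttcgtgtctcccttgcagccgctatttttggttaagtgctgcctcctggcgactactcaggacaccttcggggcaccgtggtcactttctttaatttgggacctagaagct
Slc7a8, chr14:54781887-54782136, minus strand: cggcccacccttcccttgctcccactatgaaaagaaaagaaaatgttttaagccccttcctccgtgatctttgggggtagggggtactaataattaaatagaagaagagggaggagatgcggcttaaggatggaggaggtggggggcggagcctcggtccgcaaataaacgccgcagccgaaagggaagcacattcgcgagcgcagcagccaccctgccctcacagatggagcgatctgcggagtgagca
Slc7a11, chr3:50443614-50443863, minus strand: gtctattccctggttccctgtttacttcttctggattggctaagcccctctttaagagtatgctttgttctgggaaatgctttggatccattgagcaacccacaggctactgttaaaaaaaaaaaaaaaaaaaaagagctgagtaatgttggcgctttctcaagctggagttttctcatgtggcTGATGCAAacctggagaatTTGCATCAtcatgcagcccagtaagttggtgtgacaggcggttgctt
The Slc7a7 window held 1 match, beginning 141 bases before the start, and the Slc7a11 window held 2, beginning 66 and 47 bases before it, on opposite strands. The second Slc7a7 window, which overlaps the first, held a further match 243 bases before its own start. The Slc3a2 and Slc7a8 windows held none.

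Slc3a2 encodes CD98 heavy chain, the surface partner of most light chains. Its intensity was 75.8, 47.3 and 62.8 in SS-TAMs, against 18.5, 19.1 and 26.4 in GCMs. It rose 2.89-fold (log2 fold change 1.53, SE 0.22, limma adjusted p = 0.012), with no overlap between the groups. The call was lost without SS-TAM replicate 3, GCM replicate 1 or GCM replicate 2 (adjusted p up to 0.066), with log2 fold changes between 1.44 and 1.51. The other heavy chain gene, Slc3a1, which serves cystine and dibasic amino acid uptake in kidney and intestine, was at 4.4 to 5.2 in SS-TAMs and 4.4 to 4.5 in GCMs and was not called.

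Slc7a8 encodes LAT2, a CD98 partner that exchanges neutral amino acids. It had the largest log2 fold change of the 64 transporter genes. Its intensity was 27.2, 28.5 and 32.0 in SS-TAMs, against 5.4, 5.9 and 6.3 in GCMs. The fold was 4.98 (log2 fold change 2.32, SE 0.09, limma adjusted p = 0.00038). The GCM level was close to the array median and may be background, so the fold may understate the difference. The replicates of each group lay close together, and the call held without any 1 array (adjusted p up to 0.0076).

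Slc7a7 encodes y+LAT1, a CD98 partner that exports arginine and lysine in exchange for neutral amino acids and sodium. Its intensity was 159.5, 103.8 and 152.1 in SS-TAMs, against 54.2, 58.8 and 66.7 in GCMs. It was well above the array median in both groups and rose 2.28-fold (log2 fold change 1.19, SE 0.18, limma adjusted p = 0.016). Without SS-TAM replicate 3 or any 1 of the GCM arrays the call was lost (adjusted p up to 0.078), with log2 fold changes between 1.11 and 1.27.

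The other light chain genes were not called. Slc7a5, which encodes LAT1, a high-affinity carrier of large neutral amino acids, was at 30.5, 19.9 and 20.3 in SS-TAMs, against 17.6, 15 and 19.2 in GCMs (log2 fold change 0.43, SE 0.19, limma adjusted p = 0.23). The lowest SS-TAM array lay above the highest GCM array, but only by a small margin. Slc7a11, which encodes xCT, the exchanger that takes up cystine for glutathione and releases glutamate, was at 9.0, 7.4 and 6.2 in SS-TAMs, against 10.1, 21.6 and 27.1 in GCMs. Its groups did not overlap, but the GCM arrays were spread widely (log2 fold change -1.28, SE 0.38, limma adjusted p = 0.099). On SS-TAM replicate 3 the value lay at the array median, so the size of this difference may be understated. Without GCM replicate 1, the lowest of that group, Slc7a11 was called lower (log2 fold change -1.70, adjusted p = 0.020).

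The remaining light chains were near or below an intensity of 10. Slc7a6, which encodes y+LAT2, was at 7.8 to 9.4 in SS-TAMs and 8.8 to 9.0 in GCMs. Slc7a10, which encodes the small neutral amino acid exchanger Asc-1, was at 8.4 to 10.5 in SS-TAMs and 8.3 to 8.7 in GCMs. These ranges overlapped. Slc7a9, the usual partner of Slc3a1, was at 4.7 to 6.4 in SS-TAMs and 4.4 to 4.6 in GCMs (log2 fold change 0.29, limma adjusted p = 0.20), and it was called only without SS-TAM replicate 1 (adjusted p = 0.047). Slc7a13 was at 3.8 to 4.3 in SS-TAMs and 4.3 to 4.4 in GCMs. Slc7a12 and Slc7a15 were not called. In all, 2 of 10 light chain genes were higher and 0 lower, with a median log2 fold change of 0.07. Of all genes tested, 5.16% were called higher and 4.74% lower, and so few genes allow no comparison with these shares.

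**Figure D2:**
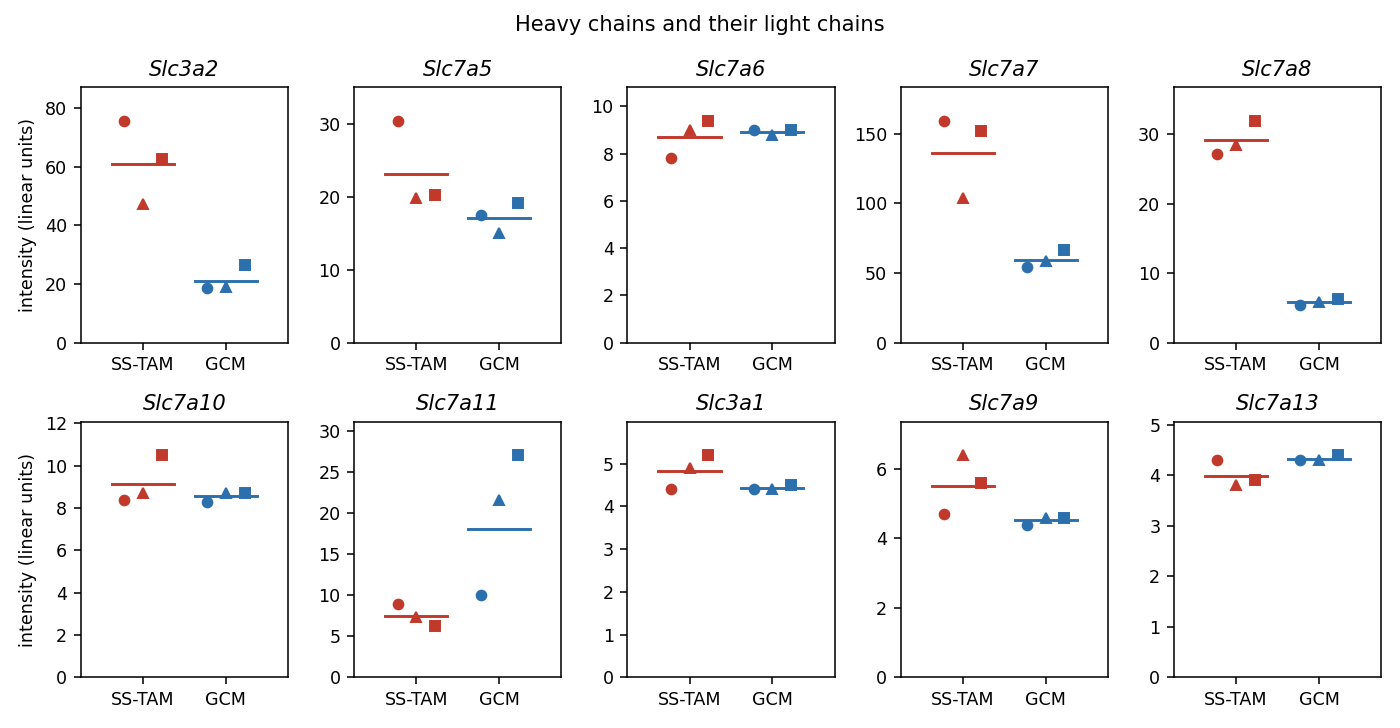
Intensity (linear units, each axis from 0 and scaled to its gene) of the heavy chain genes Slc3a2 and Slc3a1 and 8 light chain genes, SS-TAM arrays in red and GCM arrays in blue, with circles, triangles and squares for replicates 1, 2 and 3 and the geometric mean as a bar. Slc3a2, Slc7a7 and Slc7a8 were called higher in SS-TAMs, while Slc7a11 lay lower in SS-TAMs (6.2 to 9.0 against 10.1 to 27.1) without passing the test.

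The cationic carrier group held Slc7a1 to Slc7a3, which take up arginine, lysine and ornithine without a heavy chain, with Slc7a4 and Slc7a14. Slc7a14 is also counted among the lysosomal carriers below. Of these 5 genes, 0 were called in either direction by limma (1 had an unadjusted p under 0.05, against 25.7% of all genes), with a median log2 fold change of 0.17. Slc7a1, which encodes the widely expressed CAT1, was at 10.3, 15.3 and 12.5 in SS-TAMs, against 9.3, 9.5 and 8.8 in GCMs. Its groups did not overlap (log2 fold change 0.45, SE 0.15, limma adjusted p = 0.12), and it was called only without SS-TAM replicate 1 (adjusted p = 0.043). Slc7a2, which encodes CAT2, the carrier that supplies arginine to activated macrophages, was at 5.8, 7.5 and 8.7 in SS-TAMs, against 5.4, 5.8 and 5.7 in GCMs. SS-TAM replicate 1 lay level with GCM replicate 2 (log2 fold change 0.36, limma adjusted p = 0.20), and without it Slc7a2 was called (adjusted p = 0.035). Slc7a3 was at 5.6 to 7.4 in SS-TAMs and 7.0 to 8.2 in GCMs, which overlapped (log2 fold change -0.18). The arginine exporter gene Slc7a7 was called and these cationic carriers were not, but carriers of export and uptake were not compared with each other.

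Of the glutamine carrier genes Slc1a5, Slc38a1 and Slc38a2, only Slc1a5 was called. Their log2 fold changes were negative, but those of Slc38a6 and Slc38a7, also glutamine carriers and described below, were positive (0.60 and 0.84). Differences between these genes were not tested. Slc1a5, which encodes ASCT2, a sodium-dependent exchanger of glutamine, was the gene called lower, at 6.3, 6.2 and 5.7 in SS-TAMs, against 7.7, 7.6 and 7.4 in GCMs (log2 fold change -0.32, SE 0.06, limma adjusted p = 0.029). The log2 fold change was small, but both groups were near the array median and the SS-TAM level may be background, so it may understate the difference. The call was lost without any 1 of the GCM arrays (limma adjusted p up to 0.12) and with the replicate number as a block (limma adjusted p = 0.076). Slc38a1, which encodes the glutamine carrier SNAT1, was at 33.7, 15.8 and 18.4 in SS-TAMs, against 38.3, 18.9 and 29.4 in GCMs. The groups overlapped and each was spread over about the same range (log2 fold change -0.37, SE 0.37, limma adjusted p = 0.55), and a second, dimmer probe set of Slc38a1 gave -0.55. Slc38a2, which encodes SNAT2, the carrier induced when amino acids run short, was at 51.4, 55.0 and 36.1 in SS-TAMs, against 51.4, 54.0 and 51.4 in GCMs. Only SS-TAM replicate 3 stood apart from the other arrays (log2 fold change -0.16, 95% interval -0.56 to 0.24).

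Slc38a6 was the only one of 11 Slc38 genes called, where 5.16% of all genes were called higher and 4.74% lower. It encodes SNAT6, a less well described member of the glutamine carrier family. Its intensity was 8.6, 6.5 and 6.9 in SS-TAMs, against 4.7, 4.5 and 5.2 in GCMs (log2 fold change 0.60, SE 0.12, limma adjusted p = 0.035). The GCM values were below the array median and may be background, so this difference may be understated as well. The call was lost without SS-TAM replicate 3 or any 1 of the GCM arrays (adjusted p up to 0.14) and with the replicate number as a block (adjusted p = 0.067). The Slc38 genes had a median log2 fold change of 0.16.

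The other Slc1 gene called was Slc1a4, which encodes ASCT1, an exchanger of alanine, serine and cysteine. It was at 6.6, 6.4 and 6.0 in SS-TAMs, against 5.0 on each GCM array (log2 fold change 0.34, SE 0.06, limma adjusted p = 0.021). The GCM values were below the array median, so this difference is a lower limit. The call was lost without any 1 of the GCM arrays (adjusted p up to 0.089) and with the replicate block (adjusted p = 0.074). The 5 glutamate carrier genes of Slc1 were not called, and their log2 fold changes ran between -0.27 and 0.07.

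Slc43a2 encodes LAT4, which lets large neutral amino acids out of the cell without a heavy chain. Its intensity was 21.7, 13.7 and 12.7 in SS-TAMs, against 6.2, 6.1 and 6.6 in GCMs. It rose 2.47-fold (log2 fold change 1.31, SE 0.21, limma adjusted p = 0.017), and as the GCM values lay at the array median this fold too may be understated. The SS-TAM arrays were spread over a wider range than the GCM arrays without overlapping them, and the call was lost without any 1 of the GCM arrays (adjusted p up to 0.084). Slc43a1, which encodes the related carrier LAT3, and Slc43a3 were not called, with log2 fold changes of -0.11 and 0.09.

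The Slc6 family couples uptake to sodium and chloride and includes carriers of neurotransmitters and osmolytes as well as of amino acids. Slc6a6 carries taurine, an amino sulfonic acid that cells accumulate as an osmolyte. Its intensity was 266.8, 127.7 and 200.1 in SS-TAMs, against 42.0, 35.5 and 41.5 in GCMs. It rose 4.79-fold (log2 fold change 2.26, SE 0.27, limma adjusted p = 0.0072), from a GCM level well above the array median. The groups were far apart, and the call held without any 1 array (adjusted p up to 0.045, log2 fold change 2.01 to 2.55).

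Slc6a8 carries creatine, an energy buffer made from arginine and glycine. Its intensity was 15.4, 11.6 and 17.9 in SS-TAMs, against 8.2, 8.2 and 8.6 in GCMs (log2 fold change 0.82, SE 0.16, limma adjusted p = 0.031). The groups did not overlap, but the call, which held without SS-TAM replicate 2, was lost without any 1 of the other arrays (adjusted p up to 0.12). The other 18 Slc6 genes were not called. Their log2 fold changes ran between -0.10 and 0.36. In 5 of these 18 (Slc6a3, Slc6a4, Slc6a9, Slc6a11 and Slc6a17) all SS-TAM arrays lay above all GCM arrays, as in 18.5% of all genes. The GCM values of Slc6a3, Slc6a4 and Slc6a11 were near the array median.

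Of 5 genes of lysosomal carriers, 0 were called by limma, and 3 had an unadjusted p under 0.05, against 25.7% of all genes. Slc36a1, a proton-coupled exporter of small amino acids that contacts the mTORC1 machinery, was at 17.5, 10.7 and 11.1 in SS-TAMs, against 7.0, 8.4 and 8.4 in GCMs. Its groups did not overlap (log2 fold change 0.69, SE 0.21, adjusted p = 0.10 from limma). Slc36a4 was at 10.0, 13.6 and 8.9 in SS-TAMs, against 8.1, 7.8 and 7.8 in GCMs, also without overlap (log2 fold change 0.43, limma adjusted p = 0.16). Slc38a7, which releases glutamine and asparagine from lysosomes, was at 22.1, 10.2 and 21.9 in SS-TAMs, against 9.3, 9.0 and 10.2 in GCMs. SS-TAM replicate 2 lay within the GCM range (log2 fold change 0.84, SE 0.31, limma adjusted p = 0.16), and without it Slc38a7 was called (log2 fold change 1.21, adjusted p = 0.0068).

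Slc38a9, the lysosomal arginine sensor of mTORC1, was at 17.5 on each SS-TAM array and at 17.5, 17.0 and 17.5 in GCMs, so that the arrays could hardly be told apart (log2 fold change 0.01, 95% interval -0.10 to 0.13). Its second probe set did not give the same picture, at 11.4, 11.8 and 16.5 in SS-TAMs, against 10.3, 9.7 and 9.9 in GCMs (log2 fold change 0.39, limma adjusted p = 0.17). Slc7a14, reported as a lysosomal cationic carrier, was at 5.1 to 5.3 in SS-TAMs and 5.0 to 5.3 in GCMs.

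Counted by array overlap alone, 20 of the 64 transporter genes (31.2%) had all SS-TAM arrays above all GCM arrays, against 18.5% of all genes, and 4 (6.25%) had all SS-TAM arrays below, against 11.5% of all genes. Of the 20, 12 were not called, with log2 fold changes between 0.15 and 0.69. The 4 were Slc1a5, Slc1a2, Slc7a11 and Slc7a6os. Slc7a6os was at 8.1, 11.3 and 6.7 in SS-TAMs, against 13.3, 16.9 and 12.9 in GCMs (log2 fold change -0.75, limma adjusted p = 0.090). It lies beside Slc7a6 on the other strand and encodes no carrier.

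**Figure D3:**
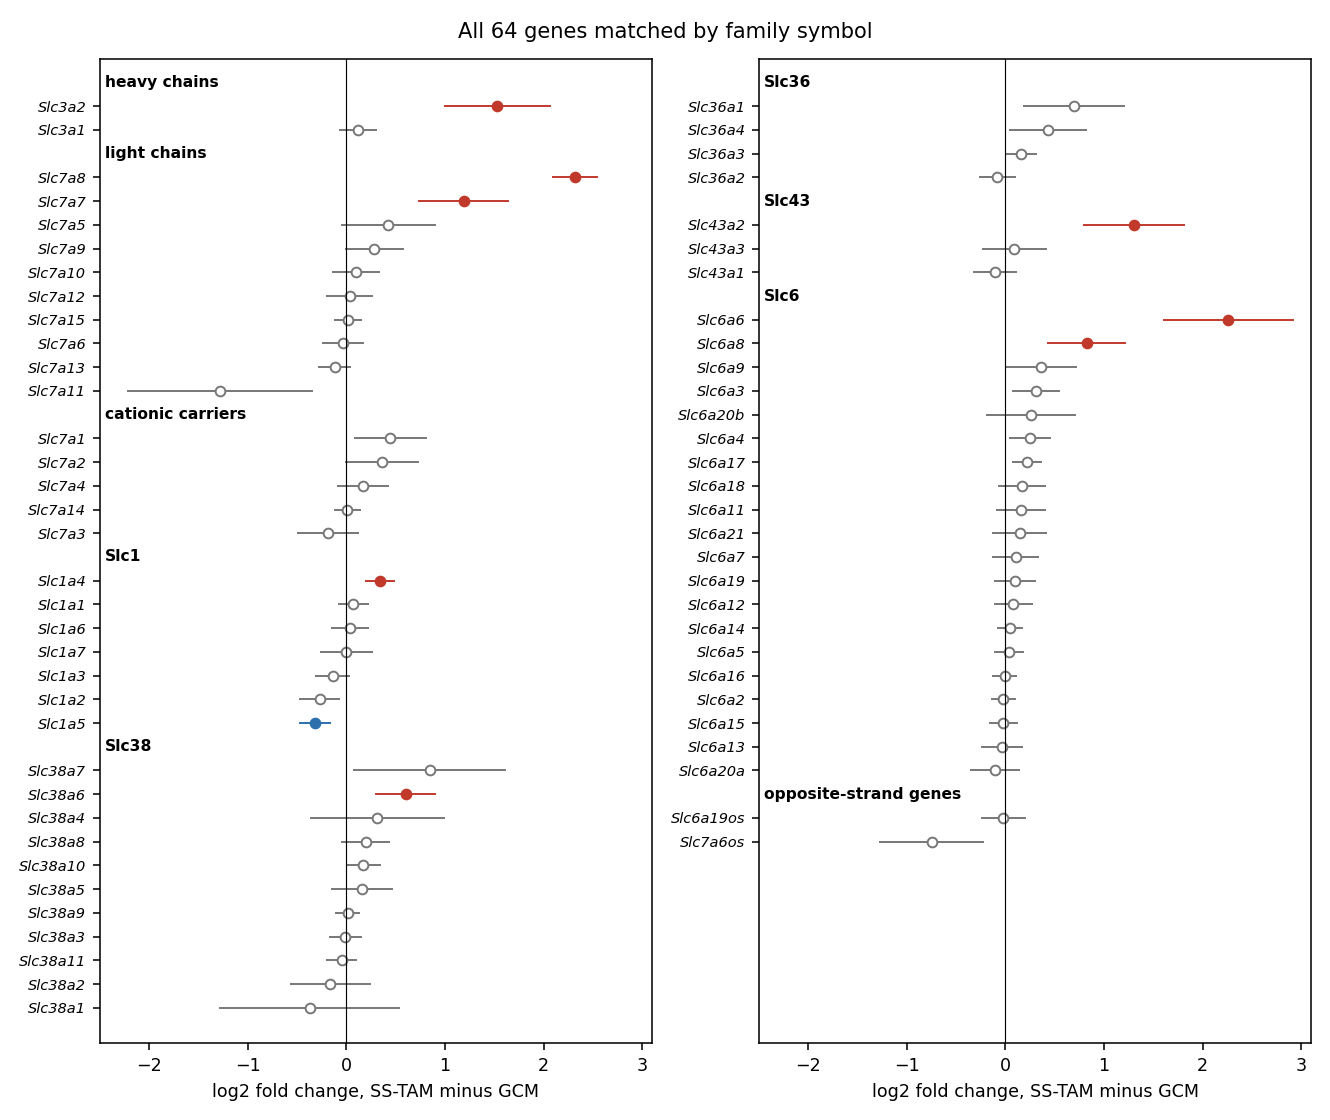
Difference in log2 intensity (SS-TAM minus GCM) of all 64 genes by family, with the 95% interval as a line, red for genes called higher, blue for genes called lower and open circles for genes not called. The 8 higher genes lie in the Slc1, Slc3, Slc6, Slc7, Slc38 and Slc43 families, and most other genes lie within 0.5 of 0.

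Lists of related genes were set beside the transporters. Their counts are to be read against the shares of all genes tested, 5.16% called higher and 4.74% called lower. Of 20 amino acid, peptide and related carriers of other families, 2 were higher and 0 lower, with a median log2 fold change of 0.10. Slc15a3, a peptide and histidine carrier of lysosomes, was at 100.2, 72.8 and 100 in SS-TAMs, against 21.4, 21.1 and 21.9 in GCMs (log2 fold change 2.07, SE 0.13). Slc15a2, a peptide carrier of the cell surface, was at 5.5, 5.9 and 6.4 in SS-TAMs, against 4.0, 3.9 and 4.0 in GCMs (log2 fold change 0.58). Its GCM values were below the array median and may be background, so this difference may be understated. The groups did not overlap in either gene, and Slc15a3 held its call without any 1 array (limma adjusted p up to 0.014).

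Of 36 measured genes of amino acid sensing by mTORC1, the kinase complex that ties growth to nutrient supply, 4 were higher and 2 lower, with a median log2 fold change of 0.05. Mios, a subunit of the GATOR2 complex that activates mTORC1, was at 15.2, 11.9 and 12.9 in SS-TAMs, against 7.3, 6.1 and 6.1 in GCMs (log2 fold change 1.03). Fnip1, a partner of folliculin, was at 21.1, 18.2 and 19.9 in SS-TAMs, against 10.0, 11.0 and 11.0 in GCMs (log2 fold change 0.89). Its relative Fnip2 and the GTPase gene Rragd were the other 2 higher genes, with log2 fold changes of 0.81 and 0.42. The call of Rragd did not hold with any 1 GCM array left out, without SS-TAM replicate 1 or with the replicate block (limma adjusted p up to 0.093). Lamtor2, a subunit of the Ragulator that anchors mTORC1 at the lysosome, was lower, at 37.8, 24.9 and 39.6 in SS-TAMs, against 113.0, 72.8 and 90.4 in GCMs (log2 fold change -1.44, with the call lost without GCM replicate 1 or 3). Sesn3, a sestrin, one of a family that holds the pathway back, was lower too, at 12.7, 8.7 and 12.3 in SS-TAMs, against 24.6, 30.6 and 26.6 in GCMs (log2 fold change -1.29, with the call lost without GCM replicate 2). The 2 lower genes thus belonged to the anchor of mTORC1 and to a family that holds the pathway back.

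Of 33 measured genes of the ATF4 response, the program that cells switch on when amino acids are scarce, 2 were higher and 0 lower, with a median log2 fold change of 0.07. Chac1, which degrades glutathione, was at 6.9, 7.1 and 8.5 in SS-TAMs, against 5.1, 4.9 and 5.2 in GCMs (log2 fold change 0.56), and the call was lost without any 1 of the GCM arrays. The tRNA synthetase gene Cars had a log2 fold change of 0.32 and lost its call under 8 of 13 alternative settings. In the 250 bases before the start, the ATF4 letters TGATGNAA occurred in 3 of the 47 transporter genes with a RefSeq window (Slc7a7, Slc7a11 and Slc6a21). This was 5.88% of the 68 windows of transporter genes, against 3.45% of the windows of all genes. The letters TGACNNNGC, the antioxidant response element bound by NRF2, were in 8 transporter genes and 13.2% of their windows, against 10.2% of all windows. The letters CACGTG, the E-box bound by MiT/TFE and MYC factors, were in 9 transporter genes. None of these 9 was called, but only 5.16% of all genes were called higher and 4.74% lower, so little can be read from this count. The E-box letters occurred in 13.2% of the windows of transporter genes, against 6.02% of all windows. The letters GAGGAAGT, bound by the macrophage factor PU.1, were in 0 of the windows of transporter genes, against 2.44% of all windows. A gene may have several windows, and matches are given as descriptions of these letters. Called genes without a window included Slc6a6, Slc6a8 and Slc1a5.

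Of 24 measured genes that use or make amino acids, 1 was higher and 1 lower, with a median log2 fold change of 0.02. Glul, the glutamine synthetase gene, was at 419.8, 334.0 and 292.8 in SS-TAMs, against 106.9, 77.0 and 87.3 in GCMs (log2 fold change 1.95, SE 0.18). The groups were far apart, and the call held without any 1 array (limma adjusted p up to 0.023). Kynu, which encodes kynureninase of tryptophan breakdown, was at 4.6, 4.8 and 8.3 in SS-TAMs, against 21.4, 20 and 17.5 in GCMs (log2 fold change -1.78, SE 0.24), and the call was lost without GCM replicate 2. On SS-TAM replicates 1 and 2 Kynu lay below the array median and may be at background, so the size of this difference may be understated.

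**Figure D4:**
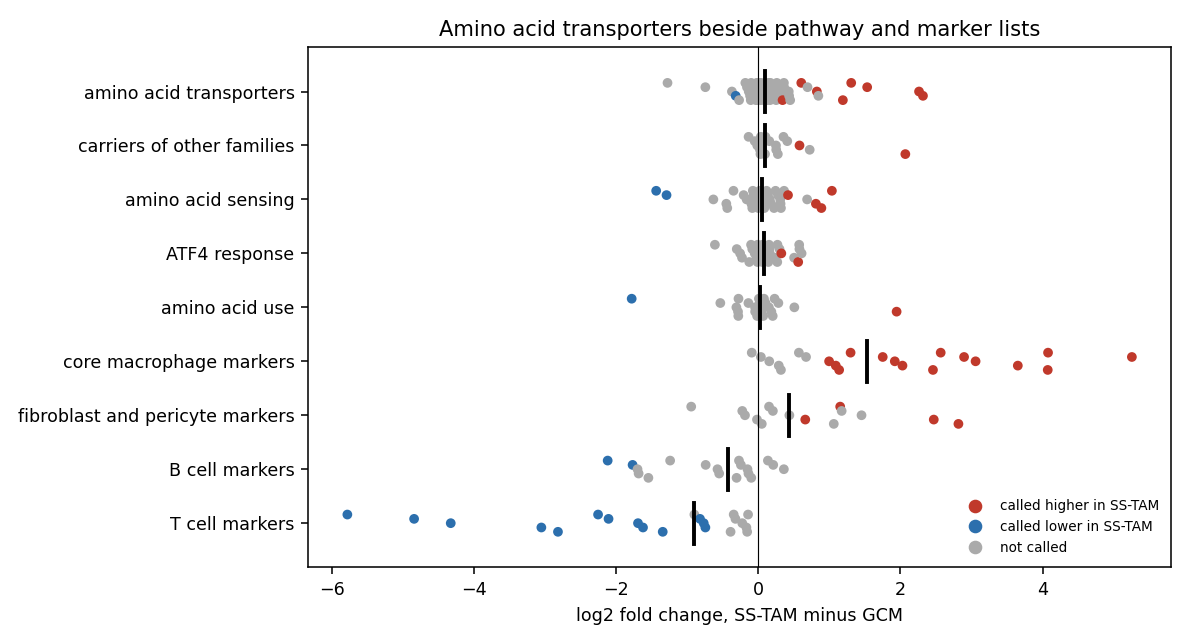
Difference in log2 intensity (SS-TAM minus GCM) of each gene, one point per gene, for the 64 transporter genes, 4 related lists and 4 marker lists, with genes called higher in red, called lower in blue and not called in gray, and the list's median as a black bar. The transporters and the related lists center near 0 with single genes far from it, whereas the core macrophage markers lie mostly above 0 (15 of 22 called higher, Cd68 and Csf1r included) and the T cell markers below it (13 of 21 called lower).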

How the data were processed

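The authors deposited 1 intensity per probe set and array on a linear scale, rounded to 1 decimal (2.4 to 2543.6). Their processing notes name RMA, which normalizes and summarizes probe intensities, and limma, without versions. No detection calls were used, so a low value is a level and not absence, and the number of arrays limits the precision.

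Log2 was taken of the deposited intensities. Of 28944 probe sets, 21789 name 1 gene in the platform annotation, and the 1621 naming several genes and the 5534 unnamed here were left out. Where a gene had several probe sets (999 genes), the one with the highest mean over the 6 arrays was used. The groups, 3 arrays of separate mice each, were compared two-sided, with no covariate, by lmFit and eBayes of limma (version 3.58.1, R 4.3.3), and p-values were adjusted by Benjamini-Hochberg over 19938 genes. The fit was tested on simulated data. Alternatives were median centring, quantile normalization, leaving out dim genes, other uses of probe sets, eBayes with trend and robust settings, array weights, the replicate number as a block, a 2-fold criterion and leaving out each array.

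The transporter families and gene lists were chosen with earlier results of these data known. Named genes were all called transporters, fixed sets of heterodimer, lysosomal, arginine and glutamine carriers, the 5 brightest transporters not called, and up to 4 called genes per list. Fnip2, Rragd, Slc7a6os and others that complete a small count were named after their values were seen. Promoter windows were matched by symbol for 47 of 64 genes.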

Additional observations from a re-analysis of the deposited data

How the results depend on the processing

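Of the 8 transporter genes called higher and 1 called lower, the same 9 were called after median centring, quantile normalization, averaging of probe sets, fitting every probe set, trend and robust settings and array weights. Without dim genes 37 transporter genes were tested, and 6 were higher and 1 lower (Slc38a6 and Slc1a4 were not tested). Requiring 2-fold as well left 5 higher and 0 lower. Leaving out each array gave 2 to 11 higher and 0 to 2 lower. Slc7a8 and Slc6a6 were called in all 6 of these fits, and 2 genes were called higher without GCM replicate 1 or 2, 3 without GCM replicate 3 and 5 without SS-TAM replicate 3.

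Replicate numbers are shared by different mice and did not pair the samples (correlations of deviations 0.090, 0.087 and 0.019). With the replicate block 6 were higher (without Slc38a6 and Slc1a4) and 1 lower (Slc7a6os in place of Slc1a5).

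Over 26 named transporter genes and 14 settings, 315 of 357 values kept their direction and call, 28 lost and 5 gained the call, and 9 changed sign, none of a called gene. After median centring Slc38a9 was at -0.0525 and Slc7a14 at -0.0569, and after quantile normalization Slc7a14 was at -0.0404 and Slc38a2 at 0.0679. Leaving out each array gave -0.0092 to 0.0328 for Slc7a14, -0.2786 to 0.0251 for Slc38a2, -0.0924 to 0.0422 for Slc7a6 and -0.0027 to 0.1583 for Slc7a10. The cause of these changes was not tested. The same settings were applied, after the data were seen, to the 12 named genes of the related lists. Slc15a3, Slc15a2, Mios, Fnip1, Fnip2 and Glul were called in every setting in which they were tested.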
